A study of Mus musculus with 8 samples.

Results

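Ribosome biogenesis and nucleolar genes were examined in SV-LECs, a mouse lymphatic endothelial cell line, after exposure to TGFβ1. The 48 genes were chosen by their symbols, and all 48 were found once each among the 55471 genes of the table. All 48 passed the filter on low counts, with 323 to 22206 counts per library, so no member was lost to low expression. SV-LECs are immortalized with SV40 and were derived from mesenteric adventitial tissue, which both groups share, and they are a single line kept in culture. The untreated group (svLEC_ctrl) received no TGFβ1 and the treated group (svLEC_tgfb1) received 10 ng/ml TGFβ1 for 72 h, with 4 libraries per group. The Methods call the 4 samples of a group technical replicates, so each error and p-value covers variation between libraries and not between independent experiments. The comparison asks how the genes that build ribosomes responded to TGFβ1 in these cells.

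Ribosomes are built in the nucleolus. RNA polymerase I transcribes the long ribosomal RNA precursor, small nucleolar ribonucleoproteins (snoRNPs) guide chemical modification and folding of that precursor, and large sets of assembly factors cut it and shape the small and the large subunit. The transcription factor MYC is known to drive many of these genes in growing cells, and TGFβ is known to slow the growth of many epithelial and endothelial cells.

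Total counts per library were between 18952504 and 26386941. Values are given as CPM, counts scaled to a common library size after TMM normalization. CPM are relative to all mRNA of a library, so total RNA per cell was not measured, and fewer cells of a type and less RNA per cell cannot be told apart. Within a group, libraries varied beyond counting noise (chi-square per degree of freedom 2.37 to 7.84). All 7 TGFβ response genes examined rose, among them Ccn2 from 219 ± 14.8 to 916 ± 51.4 CPM (± SD of n = 4 throughout). Of the endothelial and lymphatic markers, Pdpn, Nrp2, Flt4 and Kdr had at least 225 counts in every library. Prox1, Lyve1, Cdh5, Tie1 and Pecam1, which define lymphatic or vascular endothelium, had at most 5 counts in any library, so the labelled cell type was carried by part of its markers. Of 6 fibroblast markers 4 were tested and all 4 changed. Dcn fell from 312 to 83.0 CPM, Pdgfra from 160.0 to 57.8 CPM and Col3a1 from 3408 to 1805 CPM, and Col1a1 rose from 3459 to 6057 CPM. Of the leukocyte markers, Ptprc, Adgre1 and Cd3e had at most 1 count in any library, and Cd68, a lysosomal protein of macrophages, rose from 6.96 to 15.9 CPM. Of 5 epithelial markers, Krt8 and Krt18 rose but reached 1.11 and 1.24 CPM on average. The part of these genes in the values of the biogenesis genes was not tested.

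The 48 genes did not move as a block after TGFβ1. By the likelihood ratio test of edgeR, at a false discovery rate (FDR) below 0.05, 19 were significantly lower, 15 were significantly higher and 14 did not pass. In all, 70.8% of the members were called, where 75.6% of the 13818 genes tested were called, 38.0% of them lower and 37.6% higher. The share of members called was therefore near the background in these libraries. The median log2 fold change of the members was -0.04, and that of all genes tested was -0.01. Changes were small, with a median size of 0.22 on the log2 scale among the members and 0.39 among all genes. Every member had at least 323 counts in each library. Genes were not matched for expression level in this or the following comparisons of size with all genes. The largest rise was that of Utp20 (0.99) and the largest fall that of Rrp1b (-0.68).

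Few members changed by a large amount. Members with an FDR under 0.05 and an absolute log2 fold change above 0.5 numbered 4 in each direction, together 16.7% of the members, where 39.3% of all genes tested reached this size, 17.8% lower and 21.5% higher. The 4 lower genes were Rrp1b, Noc4l, Polr1c and Rrp1, and the 4 higher genes were Utp20, Tsr1, Noc3l and Nop2. When changes were tested against a fold change of 1.2 with edgeR's glmTreat, 6 members were lower and 6 were higher, 25% of the list, where 49.7% of all genes passed, 23.8% lower and 25.9% higher. Npm1 and Fbl joined the lower genes, and Polr1a and Rrn3 the higher genes. The ranges of the untreated and treated libraries did not overlap in 31 members, 17 lower and 14 higher, where 69.8% of all genes tested had no overlap, 35.1% lower and 34.7% higher.

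**Figure D1:**
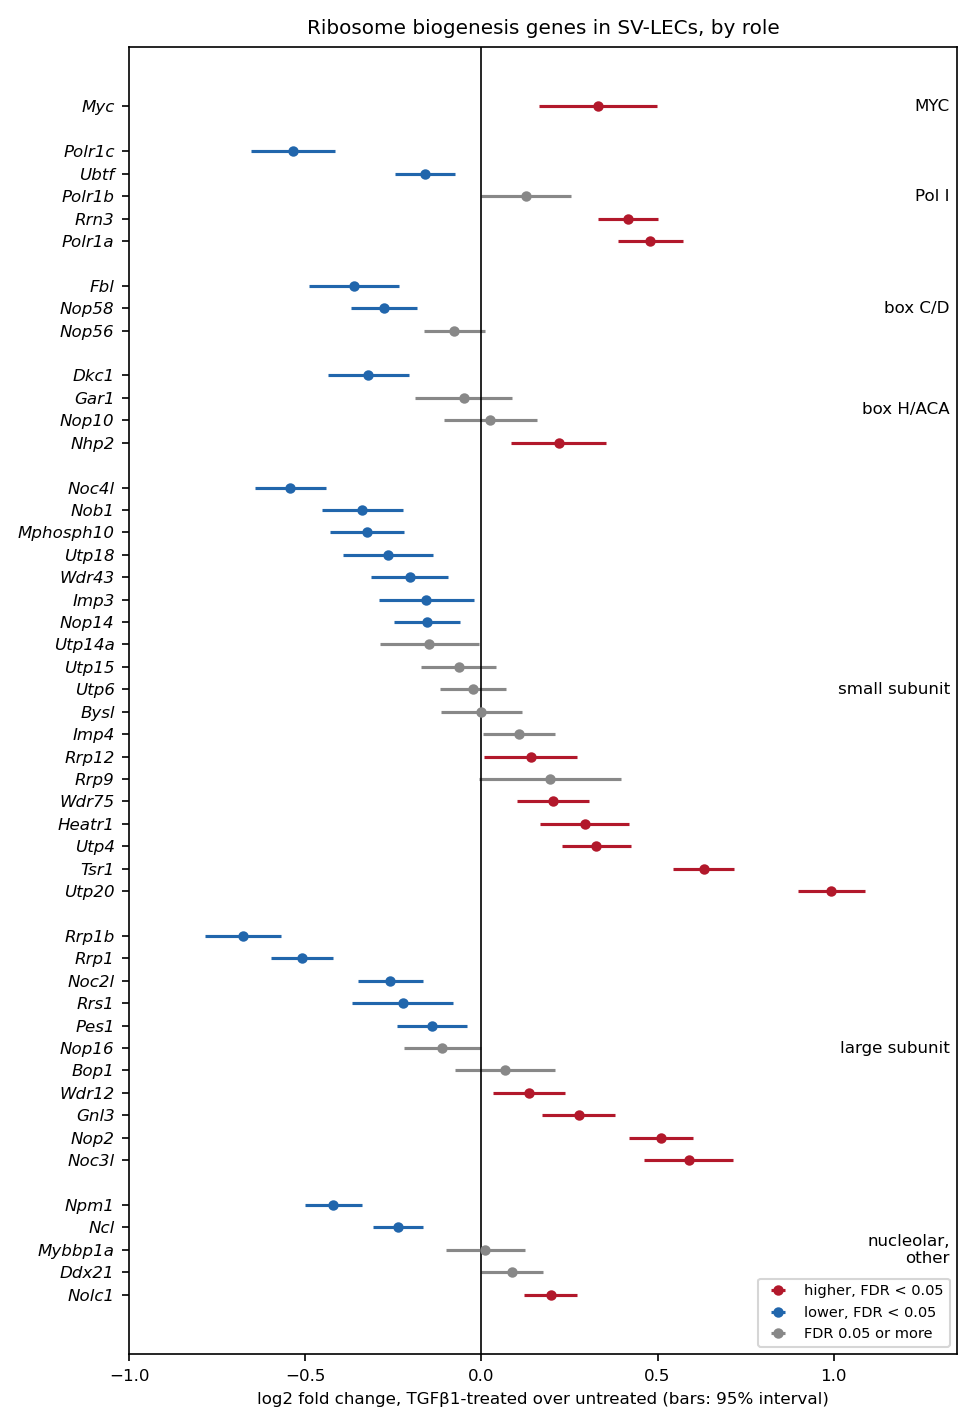
Log2 fold change of each of the 48 member genes in TGFβ1-treated over untreated SV-LECs (x axis), grouped by role, with bars for the 95% interval from 4 libraries per group. Blue points are the 19 genes significantly lower, red points the 15 significantly higher and grey points the 14 that did not pass, and every role with more than 3 members holds genes on both sides of 0.

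Myc was higher after TGFβ1. It encodes the transcription factor named above and lies on chromosome 15 of GRCm38 from 61985391 to 61990374. It measured 78.9, 80.5, 71.6 and 57.7 CPM in the untreated libraries and 90.8, 84.6, 94.8 and 93.0 CPM after TGFβ1. The groups did not overlap, but untreated library 4 lay well below the other 3. The log2 fold change was 0.33 (standard error, SE, 0.0854, edgeR FDR = 1.93e-04), a rise of 25.7%. Over all 8 libraries a rise beyond 1.2-fold was not shown (FDR = 0.146 from edgeR's glmTreat). Without untreated library 4 the log2 fold change from 0 was 0.24 (edgeR FDR = 9.79e-05).

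Genes of the wider MYC network code for paralogs, dimerization partners and antagonists of MYC and for related factors. Of 11 such genes 6 were significantly higher (54.5%) and 4 significantly lower (36.4%), with a median log2 fold change of 0.17. Of all genes tested, 37.6% were higher and 38.0% lower. Mxd4, an antagonist that competes for the partner MAX, rose from 104 ± 10.5 to 224 ± 6.57 CPM (1.10 on the log2 scale). Mga, which also dimerizes with MAX, rose by 0.46 on the log2 scale. Mxd3, of the same antagonist family as Mxd4, fell from 23.3 ± 4.59 to 4.69 ± 0.900 CPM (-2.31 on the log2 scale). The antagonists Mxi1 and Mnt fell as well (-0.89 and -0.53 on the log2 scale), and Mxd1 rose (0.34), so antagonists moved in both directions. Mycn, a paralog of Myc, fell from 15.8 ± 2.07 to 8.00 ± 1.06 CPM (-0.97 on the log2 scale). Max rose by 0.20, also on the log2 scale.

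MYC and MAX bind the E-box, a hexamer with the letters CACGTG, which reads the same on both strands. RefSeq start sites of GRCm38.p6 were matched for 41 of the 48 genes, and the window of 250 bases before to 50 bases after each start was searched. The hexamer stood in 10 of the 41 genes (24.4%), in 11.6% of 10199 tested genes with such a window and in 8.09% of all 27025 genes with one. Of these 10 genes 5 rose (Rrn3, Nop2, Tsr1, Utp20, Utp4), 3 fell (Utp18, Pes1, Wdr43) and 2 did not pass (Imp4, Mybbp1a). Among all 41 genes with a window 13 rose, 16 fell and 12 did not pass. A match describes letters in a window and is not evidence of binding. The windows of 30 bases that hold each hexamer are shown because they set the rising and falling genes side by side, 5′ to 3′ on the strand of the gene, with the hexamer in capitals.
Rrn3 chr16:13780472-13780501, plus strand, higher: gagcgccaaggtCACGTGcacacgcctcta
Rrn3 chr16:13780639-13780668, plus strand, higher: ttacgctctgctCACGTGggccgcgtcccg
Nop2 chr6:125131811-125131840, plus strand, higher: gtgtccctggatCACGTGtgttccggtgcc
Tsr1 chr11:74898092-74898121, plus strand, higher: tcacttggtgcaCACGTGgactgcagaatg
Utp20 chr10:88826765-88826794, minus strand, higher: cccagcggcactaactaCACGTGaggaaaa
Utp4 chr8:106893643-106893672, plus strand, higher: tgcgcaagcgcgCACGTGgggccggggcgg
Utp18 chr11:93885769-93885798, minus strand, lower: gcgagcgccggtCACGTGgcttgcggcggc
Pes1 chr11:3963965-3963994, plus strand, lower: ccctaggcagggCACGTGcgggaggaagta
Wdr43 chr17:71616220-71616249, plus strand, lower: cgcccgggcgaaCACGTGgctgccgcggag
Imp4 chr1:34439696-34439725, plus strand, not passing: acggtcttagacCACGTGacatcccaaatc
Mybbp1a chr11:72441347-72441376, plus strand, not passing: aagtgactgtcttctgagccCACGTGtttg
Rrn3 was the one member with a pair of hexamers, which began 215 and 48 bases before its start site. The 250 bases upstream of Rrn3 (chr16:13780449-13780698, plus strand) are given to show both in place, again with the hexamers in capitals.
Rrn3 upstream: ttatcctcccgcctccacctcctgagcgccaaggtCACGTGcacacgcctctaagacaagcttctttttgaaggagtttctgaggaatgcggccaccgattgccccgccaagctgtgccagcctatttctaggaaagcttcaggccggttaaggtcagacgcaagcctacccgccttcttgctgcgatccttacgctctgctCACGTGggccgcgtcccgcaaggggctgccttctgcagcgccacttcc
In the other genes the hexamer began between 121 bases before the start site (Imp4) and base 41 after it (Mybbp1a). The ETS motif CCGGAAG, searched on both strands, stood in 13 of the 41 genes (31.7%) and in 19.9% of tested genes. Of these 13 genes 8 rose, 4 fell and 1 did not pass, beside 13, 16 and 12 of all 41. Among all genes tested 37.6% were higher and 38.0% lower. Directions were not counted among all tested genes that carry the E-box or the ETS motif. A link between a motif and direction was therefore not tested.

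The genes of RNA polymerase I transcription split in direction. Polr1a, the largest subunit of the enzyme, rose, and so did Rrn3, the initiation factor that recruits it to the ribosomal DNA promoter. Polr1c, a subunit shared with RNA polymerase III, fell, as did Ubtf, the factor that binds along ribosomal DNA. Polr1a (chromosome 6, 71909053 to 71984935) measured 56.1, 58.7, 53.9 and 53.6 CPM in untreated and 78.1, 77.8, 77.3 and 77.2 CPM in treated libraries. The 4 treated libraries were nearly equal and all lay above the untreated ones (log2 fold change 0.48, SE 0.0473, edgeR FDR = 1.51e-23). Rrn3 (chromosome 16, 13780708 to 13814839) went from 112, 114, 118 and 119 CPM to 152, 163, 154 and 149 CPM. Its groups were also well apart, at 0.42 in log2 fold change (SE 0.0438, edgeR FDR = 7.95e-21).

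Polr1c (chromosome 17, 46243920 to 46248054) measured 47.7, 49.2, 50.8 and 48.6 CPM without TGFβ1 and 33.3, 38.0, 32.1 and 32.4 CPM with it. Treated library 2 was the highest of its group and still lay below every untreated library (log2 fold change -0.53, SE 0.0609, edgeR FDR = 6.59e-18). Ubtf went from 151, 159, 159 and 146 CPM to 135, 136, 142 and 137 CPM, and its groups were separated by a narrow gap (log2 fold change -0.16, edgeR FDR = 4.07e-04). Polr1b, the subunit that forms the active site together with Polr1a, had a log2 fold change of 0.13 and did not pass (edgeR FDR = 0.0680, 95% interval -0.0014 to 0.25).

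Other genes of the polymerase I machinery were split as well. Of 10 found by symbol, 6 were significantly higher and 3 significantly lower, with a median log2 fold change of 0.30. These are 60% and 30% of the list, where 37.6% of all genes tested were higher and 38.0% lower. Polr1e, a polymerase I subunit, rose from 13.8 ± 0.774 to 35.9 ± 1.46 CPM (1.38 on the log2 scale), and Ttf1, the transcription termination factor, from 25.4 ± 2.44 to 47.2 ± 3.38 CPM (0.89 on the log2 scale). Taf1b, a subunit of the promoter selectivity factor SL1, fell from 22.3 ± 0.559 to 11.2 ± 0.669 CPM (-0.99 on the log2 scale) and Znrd1, a small subunit, from 21.1 ± 2.01 to 15.0 ± 0.155 CPM (-0.49 on the log2 scale).

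The core proteins of the box C/D snoRNP, which guides 2′-O-methylation of ribosomal RNA, were lower or did not pass. Fbl, the methyltransferase fibrillarin, measured 33.0, 35.3, 33.9 and 30.7 CPM in untreated and 24.4, 26.7, 27.8 and 24.8 CPM in treated libraries. The groups did not overlap, and the log2 fold change was -0.36 (SE 0.0648, edgeR FDR = 5.15e-08). Of the 75-base stretches of Fbl transcripts, 17.0% also occur in transcripts of other genes. Nop58, a scaffold protein of the same particle, went from 193, 204, 199.8 and 177 CPM to 159, 163, 158 and 159.9 CPM (log2 fold change -0.28, edgeR FDR = 2.06e-08), again without overlap. Its paralog and partner Nop56 had a log2 fold change of -0.08 and did not pass (edgeR FDR = 0.108, 95% interval -0.16 to 0.01), but it passed when libraries were scaled by total counts (edgeR FDR = 0.00179). Of its 75-base stretches, 14.4% are shared with other transcripts on the same strand, mainly AC122861.1.

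The 4 core proteins of the box H/ACA snoRNP, which guides pseudouridylation, did not share a direction. Dkc1, the pseudouridine synthase dyskerin, fell from 51.9, 55.2, 55.6 and 53.0 CPM to 44.9, 44.1, 38.8 and 45.0 CPM. All treated libraries lay below the untreated ones, with treated library 3 the lowest (log2 fold change -0.32, SE 0.0581, edgeR FDR = 7.46e-08). Nhp2 rose from 35.9, 35.6, 31.4 and 31.4 CPM to 35.6, 38.1, 40.8 and 41.6 CPM, and treated library 1 lay within the untreated range (log2 fold change 0.22, edgeR FDR = 0.00216). Gar1 and Nop10 did not pass, with log2 fold changes of -0.05 (95% interval -0.19 to 0.09) and 0.03 (95% interval -0.11 to 0.16). Of 8 other snoRNP proteins and snoRNP assembly factors, 6 were significantly lower (75%) and none significantly higher, where 38.0% of all genes tested were lower and 37.6% higher. The largest falls were those of Ruvbl2, an ATPase of the R2TP assembly complex (-0.50 on the log2 scale), and Nufip1, a snoRNP assembly factor (-0.34).

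**Figure D2:**
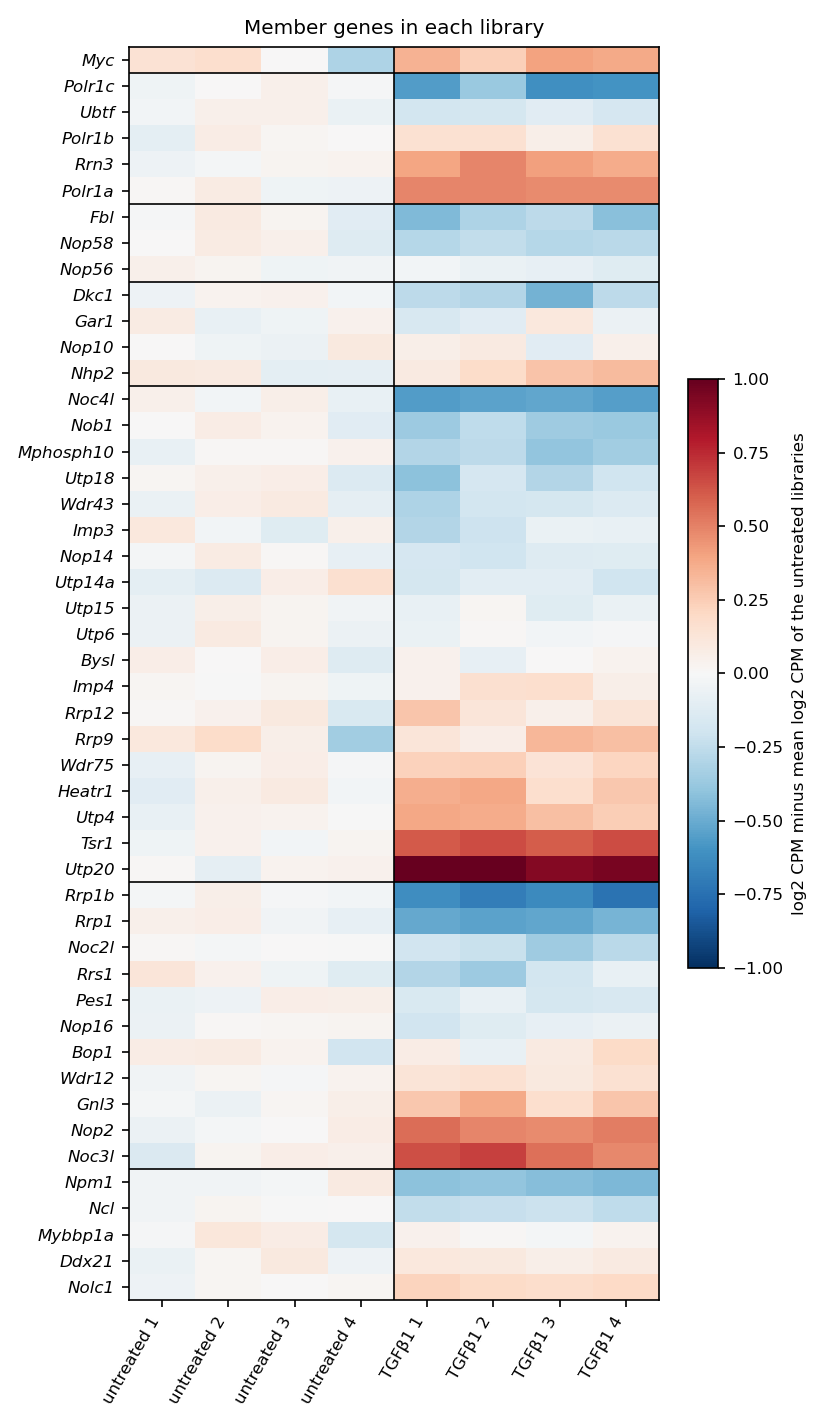
Heatmap of the 48 member genes (rows, in the order of the plot by role) in the 8 libraries (columns), as log2 CPM minus the mean log2 CPM of the 4 untreated libraries of that gene, on a scale from -1 to 1. The rows of Utp20, Tsr1 and Noc3l are red and those of Rrp1b, Noc4l and Polr1c blue in all 4 treated libraries, while many rows stay pale.

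Among the 19 small subunit assembly factors, 7 were significantly lower, 6 were significantly higher and 6 did not pass, with a median log2 fold change of -0.02. The shares of 36.8% lower and 31.6% higher were near those of all genes tested (38.0% and 37.6%). Utp20, a large scaffold protein of the small subunit processome, changed most of all 48 genes. It lies on chromosome 10 from 88746607 to 88826804. Utp20 measured 112, 105, 114 and 115 CPM in untreated and 230.4, 231, 209.6 and 214 CPM in treated libraries. The lowest treated library lay 95.1 CPM above the highest untreated one, far more than the spread within either group. The log2 fold change was 0.99 (SE 0.0487, edgeR FDR = 2.29e-90), a 1.99-fold rise.

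Tsr1, a GTPase-like factor of late small subunit maturation (chromosome 11, 74898071 to 74909342), rose from 60.6, 64.2, 61.2 and 63.7 CPM to 95.5, 98.1, 95.1 and 98.0 CPM. The libraries of each group lay close together (log2 fold change 0.63, SE 0.0442, edgeR FDR = 2.64e-45). Of its 75-base stretches, 23.5% lie on the opposite strand of other transcripts, mainly of Srr. The libraries were made with a stranded kit, and the strand setting of the counting is not given in the sources used here. Noc4l (chromosome 5, 110648418 to 110653417), a partner of Nop14 in the small subunit precursor, fell from 62.2, 59.0, 62.5 and 57.2 CPM to 40.9, 41.6, 41.9 and 41.0 CPM. Its groups were clearly separated as well (log2 fold change -0.54, SE 0.0509, edgeR FDR = 7.31e-26). Nop14 itself fell less, with a log2 fold change of -0.16.

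Factors of one subcomplex did not always move together. In the t-UTP complex, which joins the nascent ribosomal RNA first, Utp4, Heatr1 and Wdr75 rose with log2 fold changes of 0.33, 0.29 and 0.20. Wdr43 of the same complex fell by 0.20 on the log2 scale, and Utp15 did not pass (-0.06). Utp4, for example, measured 70.8, 77.0, 76.3 and 74.5 CPM and 97.7, 96.5, 92.0 and 88.6 CPM, while Wdr43 measured 102, 113, 114 and 101 CPM and 86.4, 94.7, 94.7 and 97.3 CPM, in the order untreated and treated. Neither gene had overlapping groups. In the MPP10 complex, Mphosph10 fell by 0.32 and Imp3 by 0.16 on the log2 scale, and Imp4 had a log2 fold change of 0.11 and did not pass. The groups overlapped in Imp3 but not in Imp4.

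Nob1, the endonuclease that makes the mature end of 18S ribosomal RNA, fell from 42.8, 45.0, 43.8 and 39.4 CPM to 33.2, 35.9, 33.5 and 33.0 CPM (log2 fold change -0.34, edgeR FDR = 1.52e-08). Utp18, a UTP-B subunit, fell by 0.27 on the log2 scale. Bysl, Utp6, Utp14a and Rrp9 did not pass, with log2 fold changes of -0.00032, -0.02, -0.15 and 0.19. The members nearest the threshold were Imp3 (FDR = 0.0308) and Rrp12 (FDR = 0.0495) on the inside, and Imp4 (FDR = 0.0506) and Utp14a (FDR = 0.0520) on the outside, all from edgeR. Rrp12, an export factor with a log2 fold change of 0.14, missed the threshold under the quasi-likelihood test (edgeR FDR = 0.0511). It also did not pass when any one of 6 libraries was left out, all but untreated library 3 and treated library 3 (FDR from 0.0593 to 0.203 from edgeR). Imp3 did not pass without untreated library 1 or 4 or treated library 1 or 2 (FDR from 0.0700 to 0.124 from edgeR).

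Of the 11 large subunit assembly factors, 5 were significantly lower and 4 significantly higher, with a median log2 fold change of -0.11. The shares of 45.5% lower and 36.4% higher were near those of all genes tested (38.0% and 37.6%). Rrp1b and Rrp1, paralogs of a yeast large subunit factor, both fell. Rrp1b (chromosome 17, 32036100 to 32062865) measured 41.1, 43.5, 41.4 and 40.8 CPM in untreated and 27.2, 25.8, 26.8 and 24.96 CPM in treated libraries. No treated library came near the untreated range (log2 fold change -0.68, SE 0.0548, edgeR FDR = 1.95e-34). Rrp1 (chromosome 10, 78400384 to 78413043) went from 218, 221, 205 and 199 CPM to 148, 145, 147 and 153 CPM. Its fall was of similar size (log2 fold change -0.51, SE 0.0449, edgeR FDR = 6.75e-29).

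Noc3l and Nop2 rose. Noc3l (chromosome 19, 38788128 to 38819237), which acts with Noc2l in nuclear large subunit precursors, measured 30.2, 34.0, 34.9 and 34.6 CPM and 52.3, 53.6, 49.0 and 46.6 CPM, untreated and treated. The groups were separated (log2 fold change 0.59, SE 0.0648, edgeR FDR = 4.26e-19). Noc2l, in contrast, fell from 95.01, 93.1, 94.8 and 94.1 CPM to 82.6, 80.7, 73.8 and 78.3 CPM (log2 fold change -0.26, edgeR FDR = 6.20e-08), although 18.3% of its 75-base stretches lie opposite other transcripts, mainly of Samd11. Nop2 (chromosome 6, 125131909 to 125144753), a ribosomal RNA cytosine methyltransferase, went from 63.8, 65.2, 66.3 and 69.9 CPM to 97.7, 93.1, 92.1 and 94.6 CPM. Every treated library exceeded every untreated one (log2 fold change 0.51, SE 0.0466, edgeR FDR = 4.05e-27).

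**Figure D3:**
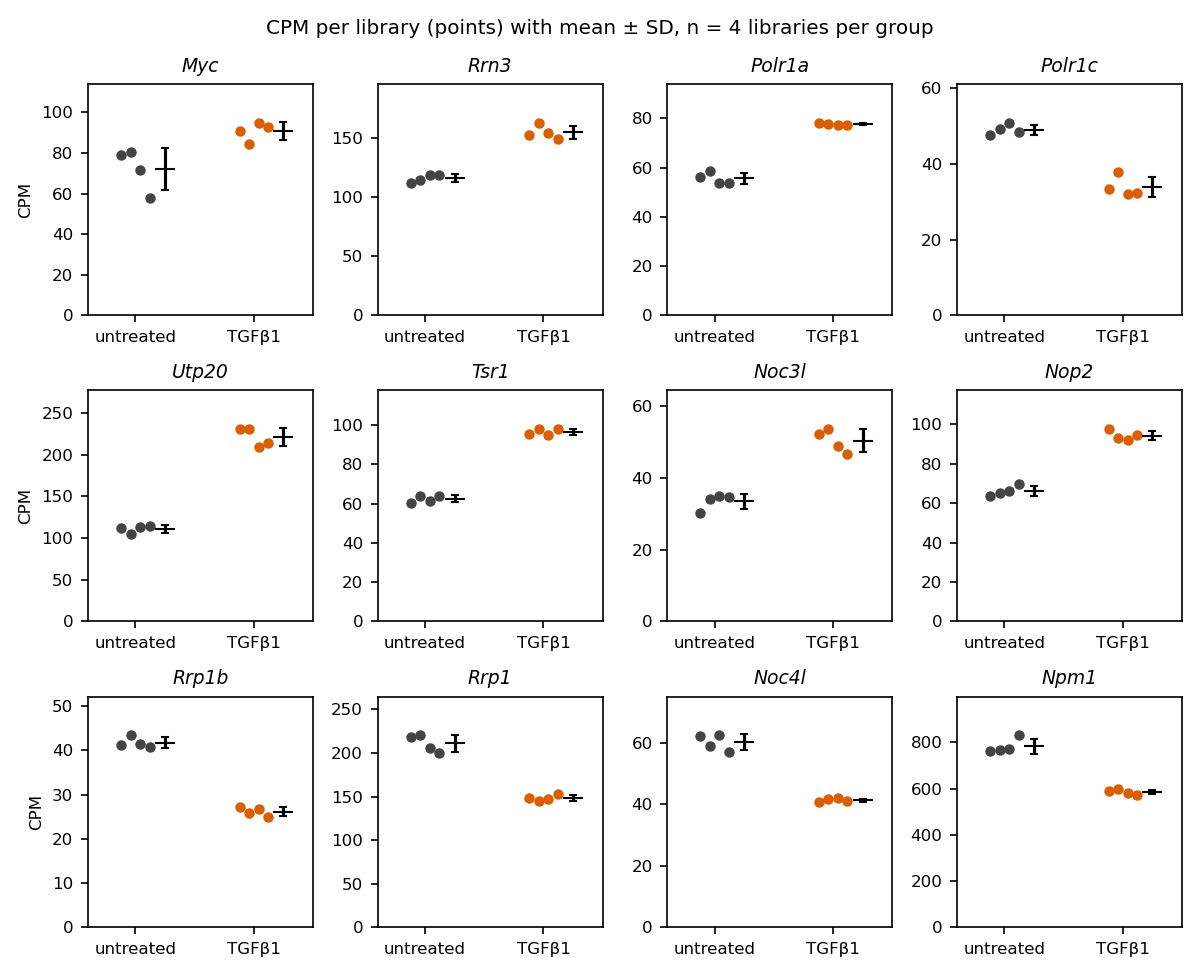
CPM in each library (points; y axes start at 0) of 12 member genes in untreated and TGFβ1-treated SV-LECs, with mean ± SD of n = 4 libraries. Utp20 sits near 111 CPM in untreated and near 221 CPM in treated libraries, and in all 12 genes no treated library falls within the untreated range.

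The PeBoW complex, which acts in large subunit processing, showed small changes of different sign. Pes1 fell by 0.14 and Wdr12 rose by 0.13 on the log2 scale, and Bop1 did not pass (0.07, 95% interval -0.07 to 0.21). Wdr12 did not pass when libraries were scaled by total counts (FDR = 0.230 from edgeR) or without untreated library 1 (FDR = 0.0540 from edgeR). It also missed the threshold under DESeq2 (FDR = 0.0586 from DESeq2) and without the filter on low counts (FDR = 0.143 from edgeR). Of the 75-base stretches of Pes1, 10.4% are shared with other transcripts on the same strand. Gnl3, the nucleolar GTP-binding protein nucleostemin, rose from 69.9, 68.0, 72.0 and 73.9 CPM to 85.5, 92.2, 79.9 and 86.0 CPM (log2 fold change 0.28, edgeR FDR = 3.83e-07). Rrs1, which helps to place the 5S particle, fell by 0.22 with overlapping groups, and Nop16 did not pass (-0.11).

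Ncl and Npm1 encode nucleolin and nucleophosmin, abundant nucleolar proteins that also act as chaperones. Ncl (chromosome 1, 86344719 to 86359400) measured 799, 834, 817 and 821 CPM in untreated and 689, 696, 706 and 685 CPM in treated libraries. Npm1 (chromosome 11, 33152287 to 33163206) went from 764, 765, 772 and 832 CPM to 588, 596, 583 and 573 CPM. Both fell without overlap of the groups, with log2 fold changes of -0.24 (SE 0.0357, edgeR FDR = 8.97e-11) and -0.42 (SE 0.0410, edgeR FDR = 6.18e-24). Of the 75-base stretches of Npm1, 18.1% also occur in other transcripts on the same strand, chiefly Gm14681, so reads could have been split between them. Nolc1, a chaperone of snoRNPs, rose from 128, 134, 133 and 134 CPM to 154, 151, 149.7 and 152 CPM (log2 fold change 0.20, edgeR FDR = 9.46e-07). The RNA helicase gene Ddx21 and the corepressor gene Mybbp1a did not pass, with log2 fold changes of 0.09 and 0.01.

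Together the 48 genes took 0.491% to 0.506% of all counts in the untreated libraries and 0.452% to 0.457% in the treated ones. Without Ncl and Npm1 the other members took 0.325% to 0.343% and 0.326% to 0.332%, ranges that overlap. Within a group the coefficient of variation of a member had a median of 4.78% in untreated and 3.94% in treated libraries. Rrp9, with 15.3%, was the most variable in untreated libraries. Untreated libraries 1 and 4 were the lowest of their group in 19 and 20 of the 48 genes, and treated library 3 in 20.

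Further ribosome biogenesis genes, outside the 48, also fell into a lower and a higher group. Of 105 found by symbol and tested, 39 were significantly lower and 35 significantly higher, with a median log2 fold change of -0.01, and 70.5% were called, near the 75.6% of all genes tested (38.0% lower and 37.6% higher). When libraries were scaled by total counts, 48 were lower and 28 higher, and the median log2 fold change of all genes moved to -0.07. Rbm28, a nucleolar RNA-binding protein of large subunit assembly, fell from 433 ± 13.3 to 178 ± 1.75 CPM (-1.28 on the log2 scale), and Nsa2 fell by 0.53. Mdn1, the giant ATPase that remodels large subunit precursors, rose from 26.7 ± 0.553 to 57.1 ± 5.76 CPM (1.09 on the log2 scale), and Mak16 rose by 0.86. Among the small subunit genes Pwp2, a UTP-B subunit, and Rrp36 rose by 0.78 and 0.72, and Nol7 and Ngdn fell by 0.54 and 0.51 on the log2 scale.

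The cytosolic ribosomal protein genes, whose products these factors assemble, were mostly lower. Of 78 tested, 65 were significantly lower (83.3%) and 5 significantly higher (6.41%), where 38.0% of all genes tested were lower and 37.6% higher. Their median log2 fold change was -0.31, beside the -0.04 of the 48 biogenesis genes. Rpl5 and Rpl17 fell most (-0.61 and -0.59 on the log2 scale). Rps10 was among the genes that rose but was counted at only 0.830 CPM in untreated cells. Many ribosomal protein genes have near-identical copies elsewhere in the genome, so their counts are uncertain. All 8 proliferation markers examined fell, with a median log2 fold change of -1.57, among them Mki67 from 346 ± 14.8 to 96.9 ± 7.16 CPM. Their part in the values of the biogenesis genes was not tested.

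**Figure D4:**
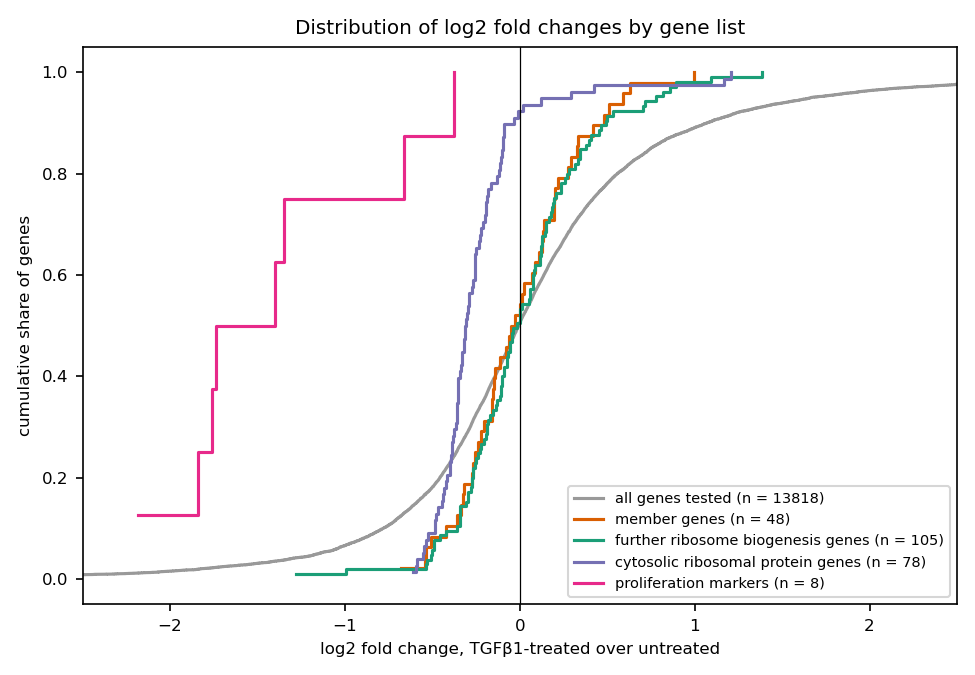
Cumulative share of genes (y axis) by log2 fold change in TGFβ1-treated over untreated SV-LECs (x axis, shown from -2.5 to 2.5) for all 13818 genes tested, the 48 member genes, 105 further ribosome biogenesis genes, 78 cytosolic ribosomal protein genes and 8 proliferation markers. The curves of the members and the further genes cross 0 near the middle and are steeper than that of all genes, the ribosomal protein curve lies left of 0 for most of its height, and all proliferation markers lie below 0.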

How the data were processed

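RNA of 8 SV-LEC samples, 4 untreated and 4 kept for 72 h in TGFβ1 at 10 ng/ml, was sequenced as stranded mRNA libraries. The authors deposited raw counts of reads per gene, and per the labels and their processing notes bcl2fastq 2.20.0.422, STAR 2.7.3a, featureCounts 1.5.1 and the mouse build GRCm38 were used. The annotation version and the strand setting are not given in the sources used here. Groups were taken from the labels, and replicate numbers did not pair the samples (correlation of deviations -0.193 to -0.0336 for equal numbers).

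Counts were analysed with edgeR 4.0.16 in R 4.3.3. Genes were filtered with filterByExpr, leaving 13818 of 55471, libraries were scaled by TMM, and a negative binomial model without covariates was fitted to the 8 libraries. Treated and untreated groups were compared by the two-sided likelihood ratio test, as in the Methods of the study, with p-values adjusted by Benjamini-Hochberg across the 13818 genes and a threshold of 0.05. Means are given with SD, and 95% intervals are log2 fold change ± normal quantile times SE. Total counts of 18952504 to 26386941 make 3 counts equal to 0.113 to 0.162 CPM. DESeq2 1.42.0, edgeR's quasi-likelihood test, other scalings and filters, glmTreat against a fold change of 1.2, a replicate block and the omission of each library were tried as alternatives. The fit was also run on counts simulated from its own model with few changed genes. Most genes were called in these data, so that run does not give the error rate here.

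The 48 genes, the further lists and the subcomplexes were chosen with earlier results of these data known. Full values were given for Myc, for the 2 members of each role with the largest absolute log2 fold change and the one with the highest mean CPM, and for the 3 largest rises and falls. Members that did not pass and the 2 on each side of the threshold were named, and up to 2 genes in each direction from each further list. More genes were named from the MYC network. Full values of Gnl3, Nob1, Noc2l, Nolc1, Nop2, Rrn3, Utp4 and Wdr43 were added after they were seen. Genes were placed on GRCm38 with GENCODE M21 (55230 of 55471 matched), and 75-base stretches of exons were compared between genes. Promoter windows came from RefSeq on GRCm38.p6, and 7 members, Myc among them, had no entry.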

Additional observations from a re-analysis of the deposited data

Results flagged for a closer look

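In 5 of 96 groups of 4 libraries (48 genes in 2 groups) a single library stood apart beyond Dixon's 95% critical value for the gap to the nearest library divided by the range. Chance gives this in about 1 of 20 groups. Polr1b in treated library 3 had a ratio of 0.948, with 19.8 CPM beside 21.2 CPM in each of the other libraries. Npm1 in untreated library 4 had a ratio of 0.876, with 832 CPM beside 764 to 772 CPM. Dkc1 in treated library 3 had a ratio of 0.859, with 38.8 CPM beside 44.1 to 45.0 CPM. Nob1 in treated library 2 had a ratio of 0.838, with 35.9 CPM beside 33.0 to 33.5 CPM. Nop16 in untreated library 1 had a ratio of 0.835, with 28.3 CPM beside 29.8 to 30.1 CPM, and it passed the threshold without that library (FDR = 0.0354 from edgeR). In Nob1 the library that stood apart lay towards the other group but still below every untreated library. In Npm1 and Dkc1 it lay on the side away from the other group, and so widened the difference.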

How the results depend on the processing

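No member changed direction with a call under any of the 17 alternatives, and in all of them 6 of the 48 stayed significantly lower, 6 stayed significantly higher and 6 did not pass, and Bysl, Mybbp1a, Nop10 and Utp6 among the last changed sign between alternatives. Tested against a fold change of 1.2, 6 members were lower and 6 higher, 13 further genes were lower and 17 higher, and Myc, with a log2 fold change of 0.33, did not pass, since this test asks for more than a difference from 0. Of all genes 3290 were then lower and 3582 higher, and of the ribosomal protein genes 34 were lower and 3 higher. Of the MYC network 2 genes were higher under this test, and of the snoRNA host genes 3 were lower. The median log2 fold change of the members was -0.11 when libraries were scaled by total counts and -0.068 without the filter on low counts, and the cause was not tested for the latter. Scaling by total counts moved the median of all genes to -0.07 and gave 23 lower and 13 higher members. Over the alternatives other than library omissions, 3290 to 5899 of all genes were lower and 3582 to 6385 higher. The number of genes tested differed with the filter. With each library left out in turn the median of the members ranged from -0.047 to -0.017, the latter without treated replicate 1, with 18 to 20 lower and 13 to 16 higher members. Ddx21, Imp4, Nop16, Rrp9 and Utp14a passed when single libraries were left out. Imp4 and Nop16 also passed under edgeR's quasi-likelihood test (FDR = 0.0390 and 0.0458). With a replicate block 18 members were lower and 14 higher, although equal numbers did not correlate and mark no pairs. Technical replicates of 1 line limit all p-values to variation between libraries.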

Other observations

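Host genes of small nucleolar RNAs, which carry snoRNAs in their introns, were split in direction. Of 12 tested, 6 were significantly lower and 6 significantly higher at an FDR under 0.05 from edgeR, with a median absolute log2 fold change of 0.67. Each direction thus held 50% of the list, where 38.0% of all genes tested were lower and 37.6% higher. Gas5, a host of box C/D snoRNAs, fell from 124 ± 10.1 to 74.5 ± 5.89 CPM (SD, n = 4 per group), which is -0.74 on the log2 scale. Snhg8 fell by 0.61 on the log2 scale. Snhg4 rose from 4.72 ± 0.260 to 11.7 ± 0.559 CPM (1.31 on the log2 scale), and Snhg20 rose by 1.07 on the log2 scale. The symbol Snhg4 had 2 entries, and the entry with the higher total count was used. Host transcripts do not measure the snoRNAs themselves.

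The log2 fold change was weakly related to exon length across genes, as a description over genes that share the same 8 libraries and are not independent. Spearman's rho was 0.20 over the 48 members and 0.05 over 13814 genes tested with a length. The median exon length was 3486 bases in the 19 lower, 4318 bases in the 15 higher and 4114 bases in the 14 members that did not pass.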
